A study of Mus musculus with 40 samples.

Results

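The comparison described here set aSyn Tg midbrain against Wt midbrain at 3 mo. aSyn Tg mice were males homozygous for an [A30P] alpha-synuclein transgene (labelled A30P alpha-synuclein +/+), and Wt mice were C57BL/6J littermates. By the sample labels it takes in 20 of 40 samples, with 5 input and 5 m6A immunoprecipitated samples in each genotype. The remaining 20 are the same genotypes at 15 mo. For gene expression, 9 input libraries were used, aSyn Tg libraries 1, 3, 4, 5 and 6 and Wt libraries 2, 3, 4 and 5, and values are listed below in that order. The m6A data are 1 list of consensus peaks per genotype and 1 list of differential peaks, all pooled over the mice of a group. The study's methods state a Thy-1 promoter for the transgene but cite a strain name built on the tyrosine hydroxylase promoter, so the cells that carry the transgene are not settled by that text.

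Mice that carry such a transgene are used as a model of Parkinson's disease. The midbrain holds the dopaminergic neurons of the substantia nigra and the ventral tegmental area. N6-methyladenosine (m6A) is a mark placed on mRNA by a complex around Mettl3 and Mettl14, removed by Fto and Alkbh5 and bound by reader proteins such as the Ythdf family. In methylated RNA immunoprecipitation sequencing, fragments bound by an antibody against m6A are sequenced beside the input RNA, and a peak is a stretch where they are enriched.

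Counted reads per input library ran over 5046458 to 6628924 in aSyn Tg mice (median 5886809) and 3625502 to 9193095 in Wt mice (median 4847737). Levels are given in CPM, read counts scaled per library by TMM, fold changes as log2 of aSyn Tg over Wt with the SE, and p-values from the quasi-likelihood test of edgeR after Benjamini-Hochberg adjustment over all genes tested. A gene was called where the adjusted p did not exceed 0.05 and the change reached 1.2-fold. The labels do not tie a library to a mouse, so these p-values measure the spread between libraries. Dopaminergic markers were present in every library. Th, which makes the precursor of dopamine, was counted at 88.3, 57.2, 75.97, 61.03 and 101 CPM in aSyn Tg libraries, against 76.5, 57.9, 84.2 and 97.8 CPM in Wt libraries. On the first principal component of the most variable tested genes alone (44.5% of their variance), aSyn Tg libraries 1, 3 and 4 and Wt libraries 2, 3 and 4 lay at opposite ends. The other 3 libraries lay between them. These aSyn Tg libraries 1, 3 and 4 also had the largest shares of reads from small and ribosomal RNA (given below). Wt libraries 2, 3 and 4 had the smallest, and the part of that share in this component was not tested.

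Of 11376 genes whose mean normalized count reached 50, 95 were called (0.835%), 71 higher (0.624%) and 24 lower (0.211%) in aSyn Tg midbrain. In 471 genes the groups did not overlap (4.14%). The higher genes were mostly not mRNAs. Protein-coding genes made up 31 of the calls, 9 higher and 22 lower, out of 10710 tested (0.289%), while small and ribosomal RNA genes made up 60, all higher, out of 163 tested (36.8%). The remaining 4 calls were the pseudogenes Pisd-ps1 and Pisd-ps2, both lower, and the noncoding genes Gm15564 and AA474408, both higher. The number of calls depended on single libraries. It was 29, 44 and 33 without Wt library 2, 3 or 4, 62 and 50 without aSyn Tg library 3 or 4, and 164 without aSyn Tg library 6, and the protein-coding count was 13, 19, 20, 17, 18 and 43 in the same order. With all 4 groups of the series in one fit it was 12, of which 10 were protein-coding, and 21 and 14 in that fit without aSyn Tg 15 mo library 5.

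Thy1 encodes a surface glycoprotein of neurons, and its promoter is the one the methods state for the transgene. It was counted at 1613, 2122, 1512, 1547 and 1355 CPM in aSyn Tg libraries, against 286, 311, 262 and 275 CPM in Wt libraries. The groups did not overlap, and aSyn Tg library 3 was the highest. The log2 fold change was 2.53 (SE 0.11, edgeR adjusted p = 1.37e-09). Whether these reads come from the endogenous gene or from Thy1 sequence carried by the transgene cannot be told apart with counts per gene.

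Thy1, Wdfy1 and Cntn3 were called at 3 mo and also in the separate comparison of 15 mo mice. Wdfy1, an endosomal protein of Toll-like receptor signalling, had 46.4, 49.1, 74.98, 49.3 and 44.6 CPM in aSyn Tg libraries and 25.6, 27.3, 23.9 and 23.7 CPM in Wt libraries. The groups were apart, with aSyn Tg library 4 well above the others of its group, and the log2 fold change was 1.07 (SE 0.14, adjusted p = 0.00151). Cntn3, a contactin and neuronal adhesion protein, went the other way, with 14.5, 19.1, 17.1, 15.7 and 13.01 CPM in aSyn Tg libraries and 34.3, 30.6, 27.1 and 29.8 CPM in Wt libraries. Every aSyn Tg library was below every Wt library, and the log2 fold change was -0.95 (SE 0.11, adjusted p = 0.000747). Wdfy1 and Cntn3 stood on a list of candidates for differences among C57BL/6 substrains, of which 8 were tested and no other was called. Over all tested genes 0.835% were called, but the list was chosen with earlier results of these data known. Whether background genotype moved with the transgene was not tested.

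**Figure D1:**
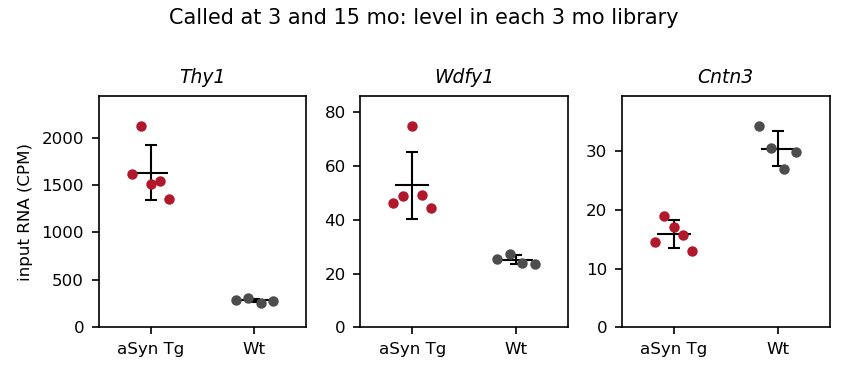
Level of Thy1, Wdfy1 and Cntn3 in each 3 mo input library (CPM on the vertical axis, from 0), aSyn Tg at the left in red and Wt at the right in grey, with 1 point per library and the mean and SD as bars. In each panel the 5 aSyn Tg points and the 4 Wt points do not overlap, Cntn3 being the one that is lower in aSyn Tg.

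The largest group of protein-coding genes that moved together were chaperones and folding enzymes of the endoplasmic reticulum. These proteins fold and quality-control secreted and membrane proteins, and their genes are induced as a set when unfolded protein accumulates. Of 28 tested members of a list of these genes, 8 were called lower and 0 higher, and 25 had a negative log2 fold change, with a median of -0.135 against -0.002 over all genes tested. Of all 11376 tested genes, 24 were called lower (0.211%) and 5774 were negative. The list was chosen with earlier results of these data known. The summed level of the list was 3245 to 3471 CPM in aSyn Tg libraries and 3754 to 3923 CPM in Wt libraries. All aSyn Tg sums were below all Wt sums. Of the 28 members, 9 had groups that did not overlap with aSyn Tg below, against 264 of all 11376 genes (2.32%).

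Hspa5, the Hsp70 chaperone BiP of the endoplasmic reticulum, was at 274, 230.2, 238, 230.3 and 242 CPM in aSyn Tg libraries and 313, 325, 328 and 321 CPM in Wt libraries. It was lower in each aSyn Tg library than in any Wt library, with aSyn Tg library 1 nearest to the Wt range (log2 fold change -0.40, SE 0.05, adjusted p = 0.000747). Hsp90b1, the Hsp90 of the same compartment (GRP94), was at 426, 393, 446, 418 and 438 CPM in aSyn Tg libraries and 482, 521, 494 and 559 CPM in Wt libraries. The groups were again apart, but the difference was smaller (log2 fold change -0.27, SE 0.05, adjusted p = 0.0133) and fell under the 1.2-fold limit without aSyn Tg library 3 or Wt library 5, at adjusted p = 0.0211 and 0.0218. Calr, the calcium-binding lectin chaperone calreticulin, was at 424, 366, 403, 408 and 439.7 CPM in aSyn Tg libraries, against 482, 539, 509.6 and 510.1 CPM in Wt libraries. It did not overlap between groups (log2 fold change -0.31, SE 0.05, adjusted p = 0.00603).

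Of the protein disulfide isomerases, which form and shuffle disulfide bonds, Pdia4 and Pdia6 were called. Pdia4 had 106, 93.8, 108, 103 and 112 CPM in aSyn Tg libraries and 147, 132, 143 and 133 CPM in Wt libraries (log2 fold change -0.41, SE 0.05, adjusted p = 0.00151). Pdia6 had 75.2, 71.8, 71.6, 66.95 and 73.02 CPM in aSyn Tg libraries and 87.1, 85.5, 91.2 and 96.4 CPM in Wt libraries (log2 fold change -0.32, SE 0.05, adjusted p = 0.00555). In both, the highest aSyn Tg library was below the lowest Wt library. Pdia3, another isomerase, was not called (-0.18, SE 0.05, adjusted p = 0.0791), and P4hb, a further one, was close to 0 (-0.02, SE 0.05, adjusted p = 0.903).

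Sdf2l1, a partner of BiP and its DnaJ co-chaperones, had the largest fall of the list. It was at 8.76, 8.67, 8.77, 7.55 and 10.4 CPM in aSyn Tg libraries, against 19.7, 16.3, 19.2 and 15.4 CPM in Wt libraries, with no overlap (log2 fold change -1.02, SE 0.12, adjusted p = 0.000747). Xbp1, a transcription factor whose mRNA is spliced by the stress sensor Ern1, was at 52.1, 48.4, 50.9, 48.7 and 58.5 CPM in aSyn Tg libraries and 66.8, 59.04, 68.98 and 70.3 CPM in Wt libraries. The highest aSyn Tg library lay just under the lowest Wt library (log2 fold change -0.36, SE 0.07, adjusted p = 0.015), and the call was lost without Wt library 2 or 4 (highest adjusted p = 0.076). Creld2, a secreted isomerase-like protein, was at 16.9, 14.9, 13.6, 15.8 and 14.6 CPM in aSyn Tg libraries and 24.7, 23.7, 25.4 and 16.8 CPM in Wt libraries. Here the groups overlapped, because Wt library 5 lay just below aSyn Tg library 1 (log2 fold change -0.59, SE 0.12, adjusted p = 0.0285), and the call was lost without any 1 of 5 libraries, aSyn Tg library 3 or 4 or Wt library 2, 3 or 4 (highest adjusted p = 0.137).

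Members just outside the limit included Manf, a secreted neurotrophic factor of the endoplasmic reticulum (-0.41, SE 0.09, adjusted p = 0.0505), and Hyou1, a large Hsp70-like chaperone (-0.16, SE 0.04, adjusted p = 0.051, and a fold change under 1.2). Of the other members, Ddit3, the pro-apoptotic factor CHOP, was not called and had 31.1, 26.7, 25.7, 31.1 and 28.96 CPM in aSyn Tg libraries and 25.4, 29.2, 29.2 and 28.8 CPM in Wt libraries, which overlap throughout (log2 fold change 0.05, adjusted p = 0.873). Atf4, its upstream activator, had a log2 fold change of 0.12 (adjusted p = 0.447), and the Atf4 target Asns, asparagine synthetase, one of 0.02 (adjusted p = 0.951). Canx, the membrane-bound relative of calreticulin, had one of -0.02 (adjusted p = 0.88). The number of list members called lower was 6 to 9 when 1 library was left out, and 5 with all 4 groups in one fit.

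**Figure D2:**
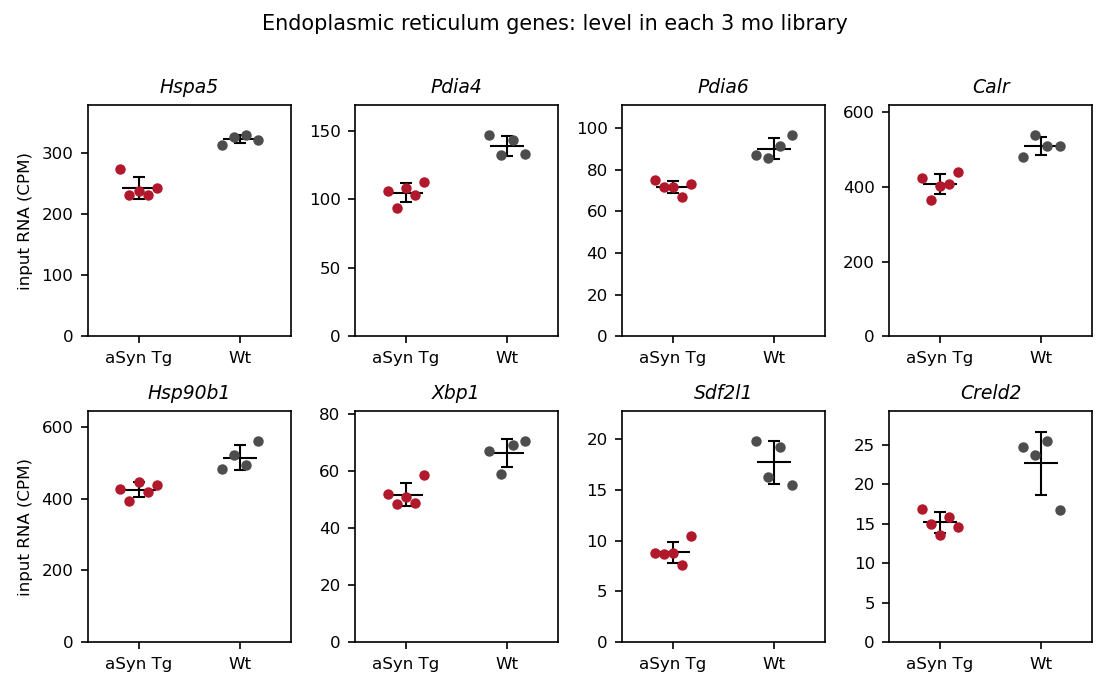
Level of 8 endoplasmic reticulum genes in each 3 mo input library (CPM on the vertical axis, from 0), aSyn Tg at the left in red and Wt at the right in grey, with 1 point per library and the mean and SD as bars. The aSyn Tg points lie below the Wt points in each panel, with an overlap in Creld2 alone.

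The promoters of these genes are shown because several share a known regulatory element. The endoplasmic reticulum stress element, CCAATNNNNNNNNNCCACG, is bound by NF-Y and by the factors Atf6 and Xbp1. It was looked for on both strands in the RefSeq promoter windows of GRCm38.p6 (mm10), 300 bases around each annotated start. An exact match stood in 5 of the 8 members called lower and in 3 of the 15 other tested members that have a window. Over all tested genes with a window it stood in 15 of 8429 (0.178%), and over all 27025 genes of the promoter table in 37 (0.137%). The 9 other genes called lower that have a window held 0. The list gathers genes of this stress response and was chosen with earlier results of these data known. Its share of matches beside that of all genes is therefore a description of the list, not a result about the genotypes. The stretches below run 5′ to 3′ in the direction of the element, with its fixed bases in capitals, at chr15:88819514-88819543 (minus strand), chr2:34772020-34772049 (plus), chr12:17266486-17266515 (plus), chr8:84847070-84847099 (plus) and chr10:86705528-86705557 (plus), and the last is that of Canx, a member that was not called, at chr11:50325794-50325823 (minus).
Creld2: gtggaCCAATtgaggctcgCCACGagaagc
Hspa5: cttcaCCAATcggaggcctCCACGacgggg
Pdia6: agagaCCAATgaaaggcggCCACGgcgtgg
Calr: atgggCCAATgagggtcgaCCACGcgttgt
Hsp90b1: actcaCCAATcgtgcctcaCCACGcactct
Canx: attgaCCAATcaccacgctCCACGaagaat
The fixed letters are a description of sequence and carry no measurement of binding. Sdf2l1, Pdia4 and Xbp1 had no exact match in their windows, and Dnajc3 and Syvn1, which were not called, had one.

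The other protein-coding genes called lower fell into no single list. Hif3a, a hypoxia-inducible factor subunit, and Zbtb16, a zinc finger repressor, were the 2 of 14 tested glucocorticoid-responsive genes that were called, with log2 fold changes of -0.74 (SE 0.16, adjusted p = 0.0402) and -0.35 (SE 0.08, adjusted p = 0.0478). Over all 11376 tested genes 0.835% were called, 5774 were negative and the median was -0.002. In the glucocorticoid list the median was -0.21 and 11 of its 14 members were negative. Sgk1, a kinase of the same list, was at 50.5, 38.1, 45.3, 43.5 and 46.8 CPM in aSyn Tg libraries and 107, 57.4, 36.1 and 82.8 CPM in Wt libraries, and the wide spread of the Wt libraries covered the aSyn Tg range (adjusted p = 0.191). Of 25 tested heat shock genes, 19 were negative (median -0.084), 9 reached an unadjusted p of 0.05, where 1361 of all 11376 tested genes did (11.96%), and 3 had all aSyn Tg libraries below all Wt libraries, where 264 of all tested genes did (2.32%). Cryab, a small heat shock protein, was the 1 called, with 78.8, 69.2, 68.6, 75.7 and 79.1 CPM in aSyn Tg libraries and 91.7, 94.6, 87.2 and 90.8 CPM in Wt libraries (log2 fold change -0.29, SE 0.05, adjusted p = 0.0172), a call lost without aSyn Tg library 3 or 4 or Wt library 2 or 3. Hif3a lost its call without aSyn Tg library 1, 4 or 5 or Wt library 2, 4 or 5 (highest adjusted p = 0.177), and Zbtb16 without the same libraries or Wt library 3 (highest adjusted p = 0.194).

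Dio2, the deiodinase that makes active thyroid hormone in glia, was at 38.5, 33.5, 31.9, 42.1 and 37.8 CPM in aSyn Tg libraries and 49.4, 54.1, 47.4 and 44.8 CPM in Wt libraries (log2 fold change -0.40, SE 0.08, adjusted p = 0.0301), a call lost without aSyn Tg library 3 or 4 or Wt library 2, 3 or 4 (highest adjusted p = 0.121). Smox, spermine oxidase, fell by 0.29 on the log2 scale, and Igsf11, a synaptic adhesion protein, by 0.30. Podxl (a sialomucin), P4ha1 (a collagen prolyl hydroxylase), Cables1 (a Cdk5-binding protein), Rapgef3 (a cAMP-regulated exchange factor) and 2 genes without an assigned function had falls of 0.27 to 0.50. In each of these named genes the groups were apart. Of the 22 coding genes called lower, 7 kept the call whichever library was left out, namely Calr, Cntn3, Hspa5, Pdia4, Pdia6, Sdf2l1 and Sfi1. The calls of the other 15 were lost without at least 1 library, as were those of Dbp, Tipin, Atp5k, Eif4a1 and Ercc3 among the 9 called higher.

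Among the genes called higher was Dbp, a clock output factor, the 1 called of 16 tested clock genes (0.835% of all tested genes were called). It was at 25.02, 43.2, 33.9, 28.6 and 31.9 CPM in aSyn Tg libraries and 18.1, 24.00, 22.2 and 19.4 CPM in Wt libraries (log2 fold change 0.65, SE 0.14, adjusted p = 0.0412), a call lost without aSyn Tg library 3 or 4 or any 1 Wt library (highest adjusted p = 0.176). The core clock genes Per1 and Per2 had log2 fold changes of 0.14 and 0.04 (adjusted p = 0.419 and 0.896). Atp5k, a small subunit of ATP synthase, was the 1 called of 70 tested nuclear genes of the respiratory chain. Of the 70, 48 had a positive log2 fold change, where 5597 of all 11376 tested genes did and 0.835% were called. Atp5k was at 53.01, 58.1, 43.5, 43.5 and 49.95 CPM in aSyn Tg libraries and 39.9, 36.1, 33.7 and 37.6 CPM in Wt libraries (log2 fold change 0.42, SE 0.09, adjusted p = 0.0389). Its call was lost without aSyn Tg library 1 or 3 or any 1 Wt library (highest adjusted p = 0.176). Tipin, a replication fork protein, Eif4a1, the helicase of translation initiation, and Ercc3, a helicase of TFIIH, had rises of 0.54, 0.30 and 0.28 on the log2 scale. Lars2, the mitochondrial leucyl-tRNA synthetase, was at 520.4, 477, 438, 331 and 288 CPM in aSyn Tg libraries and 172, 185, 175 and 247 CPM in Wt libraries (log2 fold change 1.10, SE 0.15, adjusted p = 0.00305). Its highest aSyn Tg libraries (1, 3 and 4) and its highest Wt library (5) were also those with the most ribosomal RNA, whose part in this result was not tested, and the call was lost with all 4 groups in one fit (adjusted p = 0.56, or 0.075 in that fit without aSyn Tg 15 mo library 5).

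The pseudogene Pisd-ps1, derived from the phosphatidylserine decarboxylase gene, had the largest fall of all. It lies at chr11:3125904-3131004 (mm10, plus strand), next to Sfi1, a centrosomal gene at chr11:3131850-3193463 on the minus strand. Pisd-ps1 was at 17.5, 15.6, 13.8, 17.03 and 13.3 CPM in aSyn Tg libraries and 36.04, 54.4, 34.6 and 41.8 CPM in Wt libraries, with Wt library 3 the highest (log2 fold change -1.39, SE 0.13, adjusted p = 7.13e-05). Pisd-ps2, on chromosome 17, was at 6.41, 7.11, 7.18, 6.96 and 5.90 CPM in aSyn Tg libraries and 11.8, 17.9, 11.5 and 11.2 CPM in Wt libraries (log2 fold change -0.93, SE 0.15, adjusted p = 0.00725), and Sfi1 was at 54.7, 52.01, 58.8, 55.7 and 55.5 CPM and 65.3, 80.6, 77.3 and 80.2 CPM in the same order (log2 fold change -0.43, SE 0.06, adjusted p = 0.0044). None of these overlapped between groups. The parent gene Pisd was not called (log2 fold change -0.45, SE 0.11, adjusted p = 0.0772). Parent and pseudogenes are near-identical in sequence, so how the reads were shared among them is uncertain.

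Small and ribosomal RNAs made up most of the genes called higher. These are the structural RNAs of the ribosome, those of mitochondria included, and the small nucleolar RNAs (snoRNA) that guide the modification of rRNA. The class also holds the small nuclear RNAs (snRNA) of the spliceosome. Of 163 tested genes, 157 had a positive log2 fold change, with a median of 0.921. The limit on the mean count is taken over both genotypes, so a gene high in aSyn Tg libraries alone could pass it. With no filter, 592 of 682 were positive, with a median of 0.827. The 60 called ranged over 0.358 to 2.434. They comprised 26 of 63 snoRNA genes, 21 of 43 rRNA genes, 7 of 18 snRNA genes, 3 of 8 genes annotated as miRNA and 1 each of the misc_RNA, scaRNA and mitochondrial tRNA classes. In 46 of the 60 the groups did not overlap, which follows in part from their call on the same libraries. Over all tested genes, these included, 207 had aSyn Tg above (1.82%). Many of these genes are copies of one another (15 of 32 tested 5S rRNA copies were among the calls), so their counts are uncertain one by one. The kits named for these libraries differ, a small RNA kit in the labels, and rRNA depletion followed by total RNA and mRNA kits for long RNA in the methods, so which short RNAs the preparation kept is not settled.

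Rn18s-rs5, an 18S rRNA copy, was at 9529, 8170, 8091, 6037 and 6550 CPM in aSyn Tg libraries and 3379, 3446, 3213 and 4590 CPM in Wt libraries (log2 fold change 1.07, SE 0.12, adjusted p = 0.000724). The groups were apart, with Wt library 5 the highest of the Wt libraries. The 5S copy n-R5s217 was at 20.48, 16.1, 24.7, 18.1 and 41.3 CPM in aSyn Tg libraries and 5.22, 6.35, 6.68 and 8.79 CPM in Wt libraries (log2 fold change 1.89, SE 0.27, adjusted p = 0.00371). Snord118, the U8 snoRNA of large subunit rRNA processing, was at 31.6, 42.8, 29.7, 20.9 and 21.3 CPM in aSyn Tg libraries and 14.9, 15.4, 12.4 and 19.7 CPM in Wt libraries (log2 fold change 0.93, SE 0.20, adjusted p = 0.0393). Rny1, a Y RNA, was at 810, 907, 658, 510.2 and 422 CPM in aSyn Tg libraries and 284, 281, 254 and 482 CPM in Wt libraries, where Wt library 5 lay inside the aSyn Tg range (log2 fold change 1.04, SE 0.21, adjusted p = 0.0301), and its call was lost without aSyn Tg library 1, 3 or 4 or Wt library 2, 3 or 4. Not every structural RNA followed, since Rpph1, the RNA of RNase P, had 868 ± 40.5 CPM in aSyn Tg libraries and 888 ± 87.7 CPM in Wt libraries (SD, n = 5 and 4, log2 fold change -0.03, adjusted p = 0.906).

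As a share of counted reads, nuclear-encoded rRNA took 1.045 ± 0.195% in aSyn Tg libraries and 0.518 ± 0.0638% in Wt libraries (SD, n = 5 and 4, exact two-sided permutation test, p = 0.00794, the smallest of 126 arrangements). The snoRNA share was 0.222 ± 0.0546% in aSyn Tg libraries and 0.127 ± 0.0250% in Wt libraries, and the snRNA share 0.101 ± 0.0257% and 0.0566 ± 0.0138% in the same order (exact permutation p = 0.0317 for each), and in both the groups overlapped through Wt library 5. The whole class took 5.53, 5.58, 4.76, 4.04 and 4.29% in aSyn Tg libraries, against 3.35, 3.15, 3.01 and 4.02% in Wt libraries (exact permutation p = 0.0159). The groups were apart by little, since aSyn Tg library 5 and Wt library 5 nearly met. The largest part of the class was mitochondrial rRNA. It took 2.36 to 3.36% in aSyn Tg libraries and 1.99 to 2.65% in Wt libraries, ranges that overlap. Protein-coding genes took 90.7 ± 0.730% in aSyn Tg libraries and 92.1 ± 0.506% in Wt libraries, again with some overlap (exact permutation p = 0.0317). The number of small and ribosomal RNA genes called was 36, 29 and 113 without aSyn Tg library 1, 4 or 6, 13, 22, 10 and 96 without Wt library 2, 3, 4 or 5, and 0 with all 4 groups in one fit, or 5 in that fit without aSyn Tg 15 mo library 5. When protein-coding genes were tested alone, 19 were called, 4 higher and 15 lower, and all 8 endoplasmic reticulum members were among them. The cause of the larger shares in aSyn Tg libraries was not tested.

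**Figure D3:**
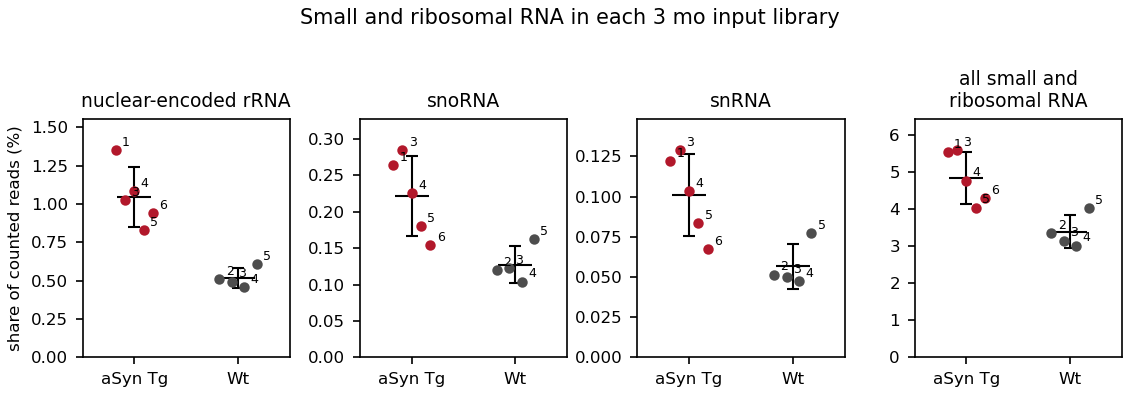
Share of counted reads (% on the vertical axis, from 0) taken by nuclear-encoded rRNA, snoRNA, snRNA and the whole class of small and ribosomal RNA in each 3 mo input library, aSyn Tg at the left in red and Wt at the right in grey, with the library number beside each point and the mean and SD as bars. The nuclear-encoded rRNA shares of the groups are well apart, and in the last panel aSyn Tg library 5 (4.04%) and Wt library 5 (4.02%) almost coincide. The last panel includes mitochondrial rRNA, the largest part of the class.

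No gene of the cell type lists described here was called. In bulk tissue, fewer cells of a type and less RNA per cell cannot be told apart. Of 14 tested dopaminergic genes 0 were called by edgeR, DESeq2 or limma voom, and 0 reached an unadjusted p of 0.05 (median log2 fold change -0.046), and the summed level of the list was 817 to 1169 CPM in aSyn Tg libraries and 839 to 1177 CPM in Wt libraries. Slc6a3, the dopamine transporter, was at 130.4, 67.6, 107, 90.5 and 155 CPM in aSyn Tg libraries and 126, 102, 144 and 154 CPM in Wt libraries, which overlap (adjusted p = 0.621). By the same tools, 0 of 20 astrocyte, 20 oligodendrocyte and 13 microglial genes were called, with 3, 3 and 2 at an unadjusted p of 0.05 or less, close to the 11.96% of all tested genes. Of the microglial genes, 12 had a negative log2 fold change (median -0.045, summed level 509 to 563 CPM in aSyn Tg libraries and 556 to 592 CPM in Wt libraries). In several other lists the share at an unadjusted p of 0.05 or less was above that 11.96%, a difference that was not tested, again with 0 called by any of the tools. Short lists among these were glutamatergic neurons (1 of 6), choroid plexus, ependyma and blood (1 of 4) and cortex, hippocampus and striatum (2 of 8). They also included 6 of 14 genes of oligodendrocyte precursors (11 negative, median -0.099, summed level 1581 to 1646 CPM in aSyn Tg libraries and 1612 to 1755 CPM in Wt libraries), 6 of 17 of endothelium and pericytes (12 negative, median -0.109, 819 to 961 CPM and 858 to 1044 CPM in the same order), 3 of 7 of reactive astrocytes (6 negative, median -0.171, 332 to 498 CPM and 399 to 481 CPM) and 5 of 9 of serotonergic and cholinergic neurons (7 positive, median 0.232, 364 to 532 CPM and 353 to 406 CPM). In the last list Chat, which makes acetylcholine, was at 11.7, 21.3, 14.4, 12.6 and 13.01 CPM in aSyn Tg libraries and 10.3, 8.83, 9.52 and 8.52 CPM in Wt libraries (log2 fold change 0.62, SE 0.17, adjusted p = 0.114), with the groups apart and aSyn Tg library 3 the highest. Postsynaptic genes showed 0 calls among 99 (19 at an unadjusted p of 0.05 or less, against the same 11.96% of all tested genes, and 0 called by DESeq2 or voom). The list of synaptic adhesion genes, which does not hold Igsf11, had 1 call among 84, Cntn3. Over all tested genes 0.835% were called.

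Markers of the pons and hindbrain, which border the dissected tissue, were high in part of the aSyn Tg libraries. Of 4 tested, 0 were called (2 at an unadjusted p of 0.05 or less) and 4 were positive (median log2 fold change 1.144), and their summed level was 136 to 334 CPM in aSyn Tg libraries and 98.2 to 184 CPM in Wt libraries. Dbh, which makes noradrenaline, was at 7.66, 37.1, 30.7, 3.70 and 9.71 CPM in aSyn Tg libraries and 6.18, 4.97, 3.34 and 3.46 CPM in Wt libraries (adjusted p = 0.171). Slc6a2, the noradrenaline transporter, was at 12.3, 40.6, 29.5, 3.85 and 10.2 CPM in aSyn Tg libraries and 5.65, 6.62, 1.67 and 2.93 CPM in Wt libraries (adjusted p = 0.103). In both genes aSyn Tg libraries 3 and 4 stood above the rest, aSyn Tg libraries 1 and 6 lay above the Wt range by less, and aSyn Tg library 5 lay inside it. The part of these libraries in the differences above was not tested, beyond the counts without each of them.

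Set against the separate libraries of 15 mo mice, few of the genes called at 3 mo were called there. Of the 95 genes called at 3 mo, 91 were tested at 15 mo, 63 had the same sign and 4 were called, where 24 of 10483 genes were called in all (0.229%). They included Thy1 (2.48, SE 0.14), Wdfy1 (1.38, SE 0.10) and Cntn3 (-1.14, SE 0.11). Of 21 coding genes called lower at 3 mo and tested at 15 mo, 18 were negative again, with a median of -0.182 at 15 mo. Hspa5 was at -0.37 there (SE 0.09, adjusted p = 0.137), Calr at -0.20 (adjusted p = 0.228) and Pdia4 at -0.16 (adjusted p = 0.6), none of them called. Over the endoplasmic reticulum list, 20 of 27 members tested at 15 mo were negative, with a median of -0.102 there, against -0.135 for the 28 tested at 3 mo and 0.006 for all genes tested at both ages. Of 57 small and ribosomal RNA genes called at 3 mo and tested at 15 mo, 35 were positive again, with a median of 0.125, and 0 were called by edgeR or reached an unadjusted p of 0.05. At that age aSyn Tg library 5 stood apart in the whole class, mitochondrial rRNA included. The class took 8.60% of the reads of this library, against 3.29 to 4.93% in the other aSyn Tg libraries and 3.81 to 6.34% in Wt libraries. This library was also the shallowest of its age, with 2161940 reads. Without it 6 of the 57 were positive, with a median of -0.249, and 0 were called. Without Wt 15 mo library 4, which had the 6.34%, 56 of the 57 were positive, with a median of 0.38, and 0 were called. The number of genes called at both ages was 4 whichever 15 mo library was left out.

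Whether a genotype difference itself changed with age was tested as an interaction over 10923 genes, and 1 was called (0.00915%), with 1145 at an unadjusted p of at most 0.05. That gene was Pisd-ps1. Its genotype difference at 3 mo was 1.09 lower on the log2 scale than at 15 mo (interaction -1.09, SE 0.17, edgeR adjusted p = 0.0152), where it was at 37.99, 38.5, 31.6, 41.3 and 31.9 CPM in aSyn Tg libraries and 44.5, 46.3, 47.6, 44.5 and 39.1 CPM in Wt libraries, ranges that overlap. DESeq2 called 23 genes for the interaction. Leaving out a single 3 mo library gave a count of 0 (number 4 of aSyn Tg), 3 (number 6 of aSyn Tg) or 2 (number 3 or 5 of Wt). Leaving out a single 15 mo library gave 0 (number 2 or 3 of aSyn Tg), 2 (number 5 of either genotype), 7 (number 3 of Wt) or 20 (number 6 of aSyn Tg). For the small and ribosomal RNAs and the endoplasmic reticulum genes, a difference between the ages was thus not shown.

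**Figure D4:**
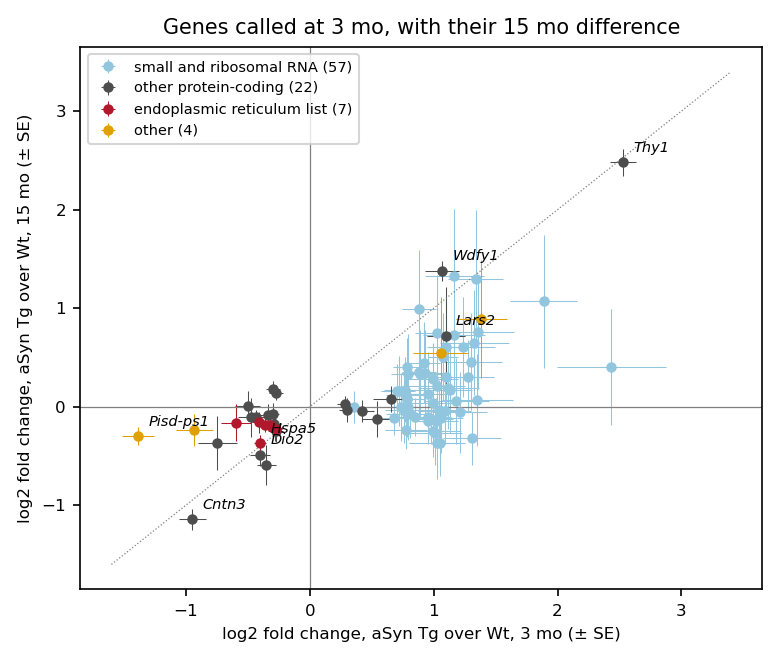
Genotype difference (log2 of aSyn Tg over Wt) at 3 mo on the horizontal axis and at 15 mo on the vertical axis, with 1 point per gene called at 3 mo, tested at both ages and reported here, coloured by class. Thy1, Wdfy1 and Cntn3 lie near the diagonal, while the small and ribosomal RNA genes, all above 0 at 3 mo, spread around 0 at 15 mo with a median of 0.125.

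In the m6A maps, most peaks were found in both genotypes. The consensus list of aSyn Tg mice held 13327 peaks on 7013 genes, and that of Wt mice 13860 peaks on 7357 genes. Their median fold enrichment over input was 4.74 in aSyn Tg and 4.7 in Wt, and their median width 236 and 240 nt in the same order. Of the aSyn Tg peaks, 87.8% overlapped a Wt peak on the same strand by at least 1 base, and 82.8% of the Wt peaks overlapped an aSyn Tg peak. Among 9791 peaks paired 1 to 1, the log2 ratio of fold enrichment, aSyn Tg over Wt, had a median of 0.06 and quartiles of -0.16 and 0.25, so that 58.4% of the pairs were higher in aSyn Tg. These are the authors' values over pooled libraries, with no error.

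The list of differential peaks was nearly one-sided. It held 436 peaks, of which 280 had a fold change of at least 1.2 at an FDR of at most 0.05. Of these, 276 on 254 genes were hypermethylated in aSyn Tg mice, called gained here, and 4 were hypomethylated. At 15 mo the corresponding list, from other libraries, held 77 gained and 236 lost peaks at the same limits. The changes were small. The median log2 change of the gained peaks was 0.39, and 38 of the 280 reached 1.5-fold. Of the 276 gained peaks, 204 overlapped a consensus peak in both genotypes, 40 in aSyn Tg alone, 2 in Wt alone and 30 in neither. In 193 of the 204 (94.6%) the consensus fold enrichment was also higher in aSyn Tg, with a median log2 ratio of 0.37, from the same reads.

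Gained peaks lay on abundant mRNAs. Of 7793 genes with a consensus peak in either genotype, 243 had a gained peak (3.12%), and of the 910 of them whose mean input count reached 1000, 130 did (14.3%). Of the 254 genes, 244 were protein-coding and 241 had an RNA test, in which 2 were called higher, among them Thy1, and 1 lower (Calr). The median RNA log2 fold change of the 241 was -0.04, close to that of all genes.

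The largest change of a gained peak stood on Thy1. Thy1 carried 3 gained peaks, all in its 3′ UTR. The first, at chr9:44047802-44048041, had a log2 change of 2.45 and the second, at chr9:44047413-44047682, one of 1.53, and both overlapped an aSyn Tg consensus peak (fold enrichment 2.2 and 3.07) while Wt mice had no Thy1 consensus peak. The third, at chr9:44048519-44048579, had a log2 change of 1.22 and no consensus peak in either genotype. The second peak was gained at 15 mo as well, by 1.38 on the log2 scale. The RNA of Thy1 was itself higher in aSyn Tg, by 2.53 on the log2 scale, and the part of that rise in the peak calls was not tested.

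Neurod2, a neuronal transcription factor gene with a mean input count of only 23.2, had peaks gained by 2.15 and 1.22. Sptbn1, which encodes beta-II spectrin of the membrane skeleton, gained 0.93 on the log2 scale (fold enrichment 4.13 in aSyn Tg and 2.17 in Wt), and Plekhm2, an adaptor for lysosome transport, gained 0.91. Thra, the thyroid hormone receptor alpha, gained 0.90, Eif4g2, a translation initiation factor, 0.82 and Scn1a, a voltage-gated sodium channel, 0.82. The RNA of these last 5 genes was not called, with log2 fold changes between -0.06 (Plekhm2) and 0.04 (Eif4g2). The peaks of Thra and Scn1a and the Neurod2 peak gained by 2.15 overlapped no consensus peak in either genotype. Those of Plekhm2 and Eif4g2 overlapped a consensus peak in aSyn Tg alone. Over both groups, the fold enrichment was 1.9 for Thra, 1.26 for Scn1a, 8.19 for that Neurod2 peak, 2.24 for Plekhm2 and 1.83 for Eif4g2.

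Short stretches of 1-block peaks are shown so that the motif under them can be read. m6A is placed mainly within a DRACH context, of which GGAC is the core. Only peaks that hold GGAC are shown. The third gained peak of Thy1 and those of Plekhm2, Eif4g2 and Scn1a hold none. Each stretch is 30 bases on the transcript strand, 5′ to 3′, from the RefSeq assembly GRCm38.p6 (mm10), with GGAC, or GGACT where the next base is T, in capitals. The first and second come from the Thy1 3′ UTR (chr9:44047845-44047874 and chr9:44047420-44047449, plus strand, gained by 2.45 and 1.53). The next are from the 5′ UTR of Grik5, a kainate receptor gene (chr7:25072134-25072163, minus, gained by 0.72), the coding sequence of Sfpq, a splicing factor gene (chr4:127021872-127021901, plus, gained by 0.79), and the 3′ UTR of Cacng7, an AMPA receptor auxiliary subunit gene (chr7:3367444-3367473, plus, gained by 0.65). The last is from the coding sequence of Fancm, a lost peak (chr12:65105354-65105383, plus).
Thy1 first: gatgagggaagttGGACTgtgcctgtacct
Thy1 second: tcctccaagccctGGACTtcatttctctgt
Grik5: gagggggcccagtGGACTgccctctccccc
Sfpq: ctccaccgcccccGGACcgcctcccccatc
Cacng7: tgttgcctttccgGGACTccattttctctc
Fancm: ttccgatgctgatGGACagtctcctgccga
In the central 100 bases of the 126 gained peaks of 1 block whose sequence was read, GGAC stood in 35.7% on the transcript strand and in 29.4% on the other strand. In the consensus peaks it stood in 51.9% (aSyn Tg) and 50.2% (Wt) on the transcript strand and in 27.5% and 27.4% on the other strand. GGACT stood in 9.52% of the gained windows, against 21.04% of aSyn Tg and 19.94% of Wt consensus windows. The gained peaks of 1 block were wider, with a median of 478 nt against 211 (aSyn Tg) and 240 nt (Wt), so the window covers less of each. Over the whole length of these peaks, GGAC stood in 73.0% of the gained peaks, against 73.95% of aSyn Tg and 74.1% of Wt consensus peaks on the transcript strand, and in 72.2%, 52.3% and 53.4% on the other strand. A match is a description of sequence, not a mapped site, and the gained and consensus peaks come from different peak callers.

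Along mRNAs, gained peaks were placed less often near the stop codon and more often near the start of translation than consensus peaks, a comparison of shares without a test. The gained and consensus peaks come from different peak callers. Of the 276 gained peaks, 55 could not be placed on the transcript chosen for the gene. The same held for 944 of 13327 aSyn Tg and 1009 of 13860 Wt consensus peaks, and the part of this in the shares was not tested. Of 211 gained peaks whose centre could be placed on an mRNA, 11.4% lay in the 5′ UTR, against 7.25% of aSyn Tg and 6.67% of Wt consensus peaks. A further 18.01% lay in the first 20% of the coding sequence, against 9.62% and 9.58% of the consensus peaks in the same order. Within 200 nt of the stop codon, where m6A is usually densest, lay 18.96% of the gained peaks and 25.9% of the consensus peaks of either genotype. The gained peaks were longer, with a median width of 539 nt, and 53.3% consisted of several exon blocks, against 12.5% of aSyn Tg and 12.5% of Wt consensus peaks. Among peaks of 1 block, 11.9% of the gained peaks lay in the 5′ UTR and 11.9% in the first 20% of the coding sequence, against 6.73% and 8.20% of the aSyn Tg consensus peaks. The gap near the stop codon was smaller there, with 22.9% of the gained peaks and 26.75% of the aSyn Tg consensus peaks of 1 block. The 3′ UTR share turned round with the blocks. It was 31.8% of all gained peaks, against 35.04% of all aSyn Tg consensus peaks, but 51.7% of the gained peaks of 1 block, against 38.6% of the aSyn Tg consensus peaks of 1 block.

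**Figure D5:**
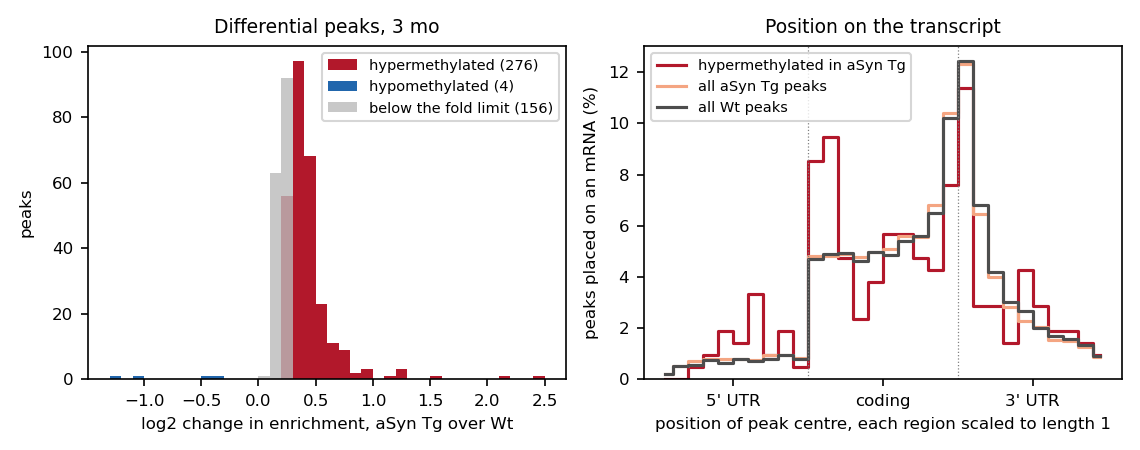
m6A at 3 mo. One panel counts differential peaks by their log2 change (aSyn Tg over Wt), with the 276 gained peaks above 0 and the 4 lost peaks below, and the other gives the share of peaks (%) along the 5′ UTR, coding sequence and 3′ UTR of an mRNA for gained peaks and for the consensus peaks of each genotype. Among peaks that could be placed on an mRNA, gained peaks are more frequent in the 5′ UTR (11.4%) and less frequent within 200 nt of the stop codon (18.96%) than aSyn Tg consensus peaks (7.25% and 25.9%).

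Genes of the synapse and the axonal membrane skeleton were among those with gained peaks. Of 76 presynaptic genes with a consensus peak, 13 had a gained peak (17.1%), where 3.12% of all genes with a peak did, and of the 49 whose mean count reached 1000, 10 did (20.4%), where 14.3% of all such genes did. They include Synj1, the phosphatase synaptojanin of vesicle uncoating (log2 change 0.69, in the coding sequence), Syn1, which tethers synaptic vesicles (0.52 and 0.35), Cltc, the clathrin heavy chain (0.48, in the 5′ UTR), and Dnm1, Sv2a and Syp. Postsynaptic genes had 8 of 85 (9.41%), and 6 of 38 at that count (15.8%), among them Wasf3, an actin regulator (0.53), and Shank1, a scaffold. Synaptic adhesion genes had 7 of 77 (9.09%), and 7 of 28 at that count (25%), among them Tenm4 (0.49) and Nrxn2. Over both groups, the fold enrichment was 1.29 for the Synj1 peak, 1.49 for Cltc, 1.33 for Dnm1, 1.32 for Syp and 1.85 for a Shank1 peak. These peaks overlapped no Wt consensus peak. For Syn1 it was 5.45 and 1.66, for Sv2a 3.03, for Wasf3 3.88, for Tenm4 2.54 and for a Nrxn2 peak 3.55. The latter all overlapped a consensus peak in both genotypes. Neurofilament, spectrin and ankyrin genes had 5 of 15 (33.3%), Ank1, Ina, Nefh, Sptb and Sptbn1. All 15 of these had a mean count of at least 1000. Ion channel genes had 5 of 48 (10.4%), and 4 of 15 at that count (26.7%). Outside these lists, genes of chromatin remodelling and histone methylation had 5 of 43 (11.6%), and 4 of 23 at that count (17.4%). Microtubule motors and adaptors had 3 of 35 (8.57%), and 3 of 27 at that count (11.1%), and glutamate receptors 2 of 26 (7.69%), and 1 of 6 at that count (16.7%). These shares were not tested against each other or against the background.

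The 4 lost peaks stood on Fancm, Gm5466, Cit and Zfp423, 4 of the 7793 genes with a peak (0.0513%). Fancm, a DNA repair translocase gene, lost a peak in its coding sequence (chr12:65105184-65105483, log2 change -1.25), which had a fold enrichment of 9.01 in Wt and no consensus peak in aSyn Tg. Elsewhere on Fancm the highest consensus peak was 25.6 in aSyn Tg, whereas in Wt the highest was the lost one. Gm5466, a processed pseudogene, had a log2 change of -1.08, Cit, citron kinase, one of -0.44 and Zfp423, a zinc finger gene, one of -0.33.

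No gene that writes, erases or reads m6A was called in RNA. Of 11 tested writer genes 0 reached an unadjusted p of 0.05 and of 14 tested eraser and reader genes 3 did. In either list 0 were called by edgeR, DESeq2 or voom. Over all tested genes 11.96% reached that unadjusted p and 0.835% were called by edgeR, so 0 calls in lists this short are close to the background. Mettl3, the catalytic methyltransferase, was at 24.7, 19.9, 22.5, 23.3 and 26.2 CPM in aSyn Tg libraries and 23.7, 25.1, 24.4 and 22.6 CPM in Wt libraries, and its partner Mettl14 had a log2 fold change of -0.06 (SE 0.06). The demethylase Fto was at 246, 267, 246, 240.4 and 248 CPM in aSyn Tg libraries and 239, 240, 252 and 253 CPM in Wt libraries (log2 fold change 0.02, SE 0.04, adjusted p = 0.876), with aSyn Tg library 3 the highest, and Alkbh5 had a log2 fold change of 0.03 (SE 0.04). All 4 sets of values overlapped between groups. Of the readers, Ythdf1, Ythdf2 and Ythdf3 had log2 fold changes of -0.01, 0.12 and 0.11 (adjusted p = 0.982, 0.405 and 0.418). Fto and Alkbh5 each carried 1 consensus peak per genotype, with a fold enrichment of 1.95 and 3.29 in aSyn Tg, against 2.11 and 1.78 in Wt.

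A minority of genes had a consensus peak in 1 genotype only. These were 436 genes in aSyn Tg mice and 780 in Wt mice, beside 6577 with a peak in both. They were of lower abundance, with a median input count of 117 and 97.8, against 243 for the genes with peaks in both. Among genes with 1 peak in a genotype, the median fold enrichment was 3.36 for the 407 of aSyn Tg alone, against 5.29 for the aSyn Tg peak of 3294 genes with peaks in both, and 4.24 for the 712 of Wt alone, against 5.32 for the Wt peak of 3251 genes with peaks in both. The abundance of these sets differed as well, and its part was not tested. Of those whose mean count reached 50, the strongest aSyn Tg peaks included those on Set, a histone chaperone (28.5), Plxna3, a semaphorin receptor (12.2), Inpp5d, a phosphatase of microglia (10.6), Zfp174 (10.1) and Fam19a1 (9.84). The strongest Wt peaks lay on Zfp568 (54.5), Cdh23, a cadherin (42.6), Plod1, a collagen lysyl hydroxylase (41.1), Ky (33.9), Zak, a stress kinase (33.2), and Zfp729b (28.4). A list that rests on the absence of a peak depends on the reads of each group, which are not known here.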

How the data were processed

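Gene expression came from input libraries of midbrain, sequenced after ribosomal RNA depletion, and m6A from matched immunoprecipitated libraries. The authors trimmed reads, aligned them with STAR to mm10 and counted them per gene over exons with featureCounts. The submitters' processing notes also name mm9. The labels name the Illumina TruSeq Small RNA kit, and the methods the RiboMinus, SMARTer Stranded Total RNA-Seq Pico and TruSeq Stranded mRNA kits. The deposited expression values are a signal, counts divided by 1 size factor per library. Their steps gave whole reads in 182547 of 182547 values (100%, tolerance 0.01), and these reads were tested. Deposited fold enrichments are a ratio of immunoprecipitated over input reads that the authors computed with MeTPeak, pooled per group. The deposited differential peaks carry a log2 change from exomePeak and a score, the log10 of the FDR, computed by the authors over the pooled libraries. The authors' columns of fold changes and p-values per gene were not used, and 38 other library columns were not used.

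Tests used edgeR 4.0.16 in R 4.3.3 (quasi-likelihood, TMM, Benjamini-Hochberg), with DESeq2 1.42.0 and limma 3.58.1 as alternatives. The fit held the 9 libraries of the comparison, without covariates, since the sources used here do not give the number of unwanted variation factors. On counts simulated for the 3 mo comparison (11376 genes), edgeR called 98 of 110 genes changed 1.5-fold and 90 of 90 changed 2-fold, and 12 unchanged genes. The simulation drew each gene independently, with no shift shared by the genes of a library. It held no change between 1.2-fold and 1.5-fold, so it does not give the recovery at those sizes. Gene IDs matched the GENCODE M21 annotation for 20218 of 20283 genes. Peaks of several blocks were rebuilt from that annotation in 3345 of 3656 cases, and by their ends alone in 311. Members and gene lists (46) were chosen with earlier results of these data known. The genes named were those the study discusses, the 12 largest changes in each direction, called list members, the strongest gained peaks, every lost peak and the strongest peaks of 1 genotype. Genes named as not called, the other coding genes called and members of cell type lists were chosen after their values were seen. Some items are not reported here. The planned test assumed deposited counts.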

Additional observations from a re-analysis of the deposited data

Results flagged for a closer look

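In 140 sets of values (1 gene in 1 genotype) 13 had a library far from the others of its genotype, where chance gives about 1 in 20. Among aSyn Tg libraries, library 3 was high for Fto (266.6 CPM, others 240.4 to 247.8). aSyn Tg library 1 was high for Hspa5 (273.5 CPM, others 230.2 to 241.8), library 4 for Wdfy1 (74.98 CPM, others 44.57 to 49.33) and library 6 for Wtap, an m6A writer subunit (30.35 CPM, others 25.14 to 25.92). The Hspa5 value lies toward the Wt libraries, which were at 313, 325, 328 and 321 CPM.

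Among Wt libraries, library 5 was high for 4 small or ribosomal RNAs, toward the aSyn Tg levels, namely Rn18s-rs5 (4590 CPM, others 3213 to 3446), Rny1 (482.4 CPM, others 254.2 to 283.8), mt-Tl2, a mitochondrial tRNA (24.51 CPM, others 11.94 to 13.8), and Mir6240 (19.18 CPM, others 7.889 to 8.829). Wt library 3 was high for Pisd-ps2 (17.93 CPM, others 11.19 to 11.83), P4ha1 (61.53 CPM, others 56.93 to 57.62), Fancm (41.94 CPM, others 37.29 to 38.08) and Ythdf2 (41.11 CPM, others 38.36 to 38.75), and low for Smox (78.63 CPM, others 82.84 to 83.38).

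The genotype difference of Pisd-ps1 was larger at 3 mo than at 15 mo by the test of the interaction (-1.09 on the log2 scale, edgeR adjusted p = 0.0152).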

How the results depend on the processing

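The counts of calls depended on the processing and on single libraries. Values are given as all genes, protein-coding genes, small and ribosomal RNA genes and endoplasmic reticulum list members, against 95, 31, 60 and 8. With 1 factor of unwanted variation the first 3 were 187, 61 and 118, and with 2 factors 221, 80 and 133. With all 4 groups in one fit they were 12, 10, 0 and 5, and in that fit without aSyn Tg 15 mo library 5, chosen after seeing the data, 21, 14, 5 and 7. With limma voom 63 genes and 34 small and ribosomal RNA genes were called, with filterByExpr 94 small and ribosomal RNA genes, and with no filter 162 and 115. A fold limit of 1.5 left 9 protein-coding genes and 2 list members. DESeq2 called 106 genes. Settings added after seeing the data called 19 protein-coding genes when these were fitted alone, and 25 genes with small and ribosomal RNA left out. Leaving out 1 library gave 29 to 164 genes, 13 to 43 protein-coding genes, 10 to 113 small and ribosomal RNA genes, 6 to 9 list members and 0 to 20 interaction genes. DESeq2 called 23 interaction genes. None of the 39 named called genes changed direction, and 5 of them (Thy1, Wdfy1, Cntn3, Sdf2l1 and Pisd-ps1) kept the call under every alternative run, while 34 lost it in at least 1.

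With the library number as a replicate block over the 6 libraries whose numbers both genotypes share, 46, 17, 27 and 4 were called, against 75, 21, 52 and 8 in the same libraries with no block. Same-numbered libraries did not deviate together (correlations of -0.118, 0.049 and -0.208), so the numbers were not taken as pairs. Differential peaks numbered 38 at 1.5-fold and 436 with no fold limit. An overlap of at least 50% of the shorter peak gave shared shares of 85.83% (aSyn Tg) and 80.89% (Wt), and a fold enrichment of at least 3 gave 86.25% of aSyn Tg peaks. The causes of these changes were not tested. Peak lists carry neither replicate spread nor depth, so small differences in enrichment cannot be judged against error. With 5 and 4 libraries the smallest exact permutation p is 0.00794. Genes under a mean count of 50 were not tested.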

Other observations

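Some genes differed among libraries of 1 genotype more than between genotypes. Ide, the insulin-degrading enzyme, was at 60.7, 65.5, 65.01, 64.3 and 67.8 CPM in aSyn Tg libraries and 60.3, 93.2, 59.96 and 88.2 CPM in Wt libraries, where libraries 3 and 5 were high and libraries 2 and 4 were at the aSyn Tg level. Btaf1, a TATA-binding protein cofactor gene, had the same split, with 70.2, 59.8, 69.00, 67.1 and 74.6 CPM in aSyn Tg libraries and 70.5, 99.9, 73.7 and 96.97 CPM in Wt libraries. At 15 mo the log2 fold changes of these genes, aSyn Tg over Wt, were -0.91 and -0.85.

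Single consensus peaks paired between the genotypes differed far more than the typical pair. A peak of Bbs1, a ciliary trafficking gene, had a fold enrichment of 47.2 in aSyn Tg and 4.09 in Wt, one of Sox4, a transcription factor gene, 63 in aSyn Tg and 6.41 in Wt, and one of Gpr179 85.6 in aSyn Tg and 11.3 in Wt. In the other direction, a peak of Pan3, a subunit of a deadenylase, had 2.92 in aSyn Tg and 37.9 in Wt, one of Srcin1, a Src signalling adaptor of neurons, 4.3 in aSyn Tg and 43.4 in Wt, and one of Nipbl, the cohesin loader, 6.09 in aSyn Tg and 45 in Wt. None of these peaks was on the list of differential peaks at the limits used.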
